A study of Mus musculus with 4 samples.

Results

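The mitochondrial genome of mouse lung group 2 innate lymphoid cells (ILC2s) was examined through every row of the deposited gene table that lies on chromosome M, which gave 29 of 22554 genes. They comprise 2 ribosomal RNA (rRNA) genes, 13 protein-coding genes and 14 of the 22 annotated transfer RNA (tRNA) genes, while the other 8 tRNA genes were not analysed here. ILC2s are lymphocytes without antigen receptors that answer IL-33 with type 2 cytokines. They were sorted from the lungs of BALB/c mice aged 6 weeks. All cells, controls included, were cultured with the survival cytokines IL-2 and IL-7 and with IL-33, and received either vehicle or compound 5D, a small molecule that blocks the Orai calcium channels of the cell surface. Each group had 2 libraries. Nothing in the sources used here says that they came from separate mice or cultures, so the p-values measure only the spread between these libraries, which may be technical. The labels speak of an overnight culture and the study's methods of a full day, and the amounts of input RNA given in the 2 places also differ.

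The mitochondrial genome is a small circle that is read almost end to end from both strands into long precursor RNAs. In those precursors most rRNAs and mRNAs are separated by tRNAs, and the cutting of the tRNA ends frees the RNAs on either side. The mRNAs encode core subunits of complexes I, III, IV and V of oxidative phosphorylation, the rRNAs build the mitochondrial ribosome that translates them, and all other proteins involved are encoded in the nucleus. Mitochondria also take up calcium that enters a cell, and ILC2s draw on oxidative metabolism for cytokine production.

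Several of these genes share bases with a neighbour, which bears on how reads are assigned. By the GENCODE annotation of mm10, mt-Atp8 (chrM:7766-7969, plus strand), encoding a small subunit of the ATP synthase, ends inside mt-Atp6 (chrM:7927-8607, plus strand), which encodes the subunit of its proton channel, and 43 nt are common to both. The whole of mt-Atp8 is shown because its level and that of mt-Atp6 rest partly on the same bases, which are in capitals.
mt-Atp8: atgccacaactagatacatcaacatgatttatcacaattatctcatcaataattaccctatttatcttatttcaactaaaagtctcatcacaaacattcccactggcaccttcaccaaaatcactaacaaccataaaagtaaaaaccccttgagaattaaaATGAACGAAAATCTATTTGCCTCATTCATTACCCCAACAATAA
mt-Nd4l (chrM:9877-10173) and mt-Nd4 (chrM:10167-11544), encoding membrane subunits of complex I on the plus strand, share 7 nt, which are the capitals at the end of mt-Nd4l.
mt-Nd4l end: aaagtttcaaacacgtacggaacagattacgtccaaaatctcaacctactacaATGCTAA
mt-Nd6 (chrM:13552-14070), another complex I subunit, is the only protein-coding gene on the minus strand, and its last 14 nt, in capitals, lie opposite the end of mt-Nd5 (chrM:11742-13565).
mt-Nd6 end: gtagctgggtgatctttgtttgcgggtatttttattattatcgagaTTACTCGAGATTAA
The library kit named in the study's methods primes cDNA on poly(A) and does not mark the strand, so reads from opposite strands could not be told apart in such a stretch.

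Near-identical nuclear sequence concerned more of the counts than these overlaps. By BLAST against the annotated transcripts, 9 of the 29 genes had a stretch of at least 150 nt at 95% identity in 11 other genes, of which 8 had a row in the table. Of these, 6 are pseudogenes in a row on chromosome 1 (chr1:24612407-24616197, minus strand), a piece of mitochondrial sequence inserted in the nuclear genome. Gm28437, the copy of mt-Co3, was identical to it over 783 nt, Gm10925 to mt-Atp6 over 678 nt, Gm28661 to mt-Co2 over 681 nt and Gm10222 to mt-Nd4l over 294 nt. Gm29216 held part of mt-Co1, with 483 nt at 99.8% identity. Gm28438, the copy of mt-Nd3 (chrM:9459-9806, plus strand, a complex I subunit), differed from it at 1 position in 345 nt, T3C, counted from the first base of mt-Nd3. The first 60 nt of both are shown with that base in capitals, because it was the only one by which the compared stretch of this pair could be told apart.
mt-Nd3: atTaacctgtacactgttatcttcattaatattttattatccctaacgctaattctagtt
Gm28438: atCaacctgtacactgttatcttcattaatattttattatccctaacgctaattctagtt
The mm10 assembly comes from another inbred strain than BALB/c, and which base the reads carried was not tested.

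In all 4 libraries the deposited counts were divided between these genes and their copies. mt-Co3, encoding a core subunit of cytochrome c oxidase, had 25308 and 21544 counts with vehicle and 25326 and 28607 with 5D, and Gm28437 had 25298, 21536, 25336 and 28611. The copy thus held 49.99% to 50.01% of the pair's counts in a library. Of the counts of mt-Nd3 and its copy, 81.9% and 84.7% with vehicle and 85.8% and 85.6% with 5D were assigned to the copy, so that only 361 to 431 counts remained on mt-Nd3 itself. For mt-Nd4l the copy held 59.6% and 55.4% with vehicle and 50.2% and 50.7% with 5D. The 2 groups did not overlap for mt-Nd3, with a higher share on the copy in the 5D libraries, nor for mt-Nd4l, with a lower one. The copies held 45.2% to 49.8% for mt-Atp6, 37.5% to 39.3% for mt-Co2 and 24.7% to 29.8% for mt-Co1. A further pair of copies on chromosome 2, Gm13340 and Gm13341, had between 2.39 and 7.18 counts in any library. Levels of these 6 mRNAs are therefore given for the deposited row and, where it matters, with the chromosome 1 copy added.

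**Figure D1:**
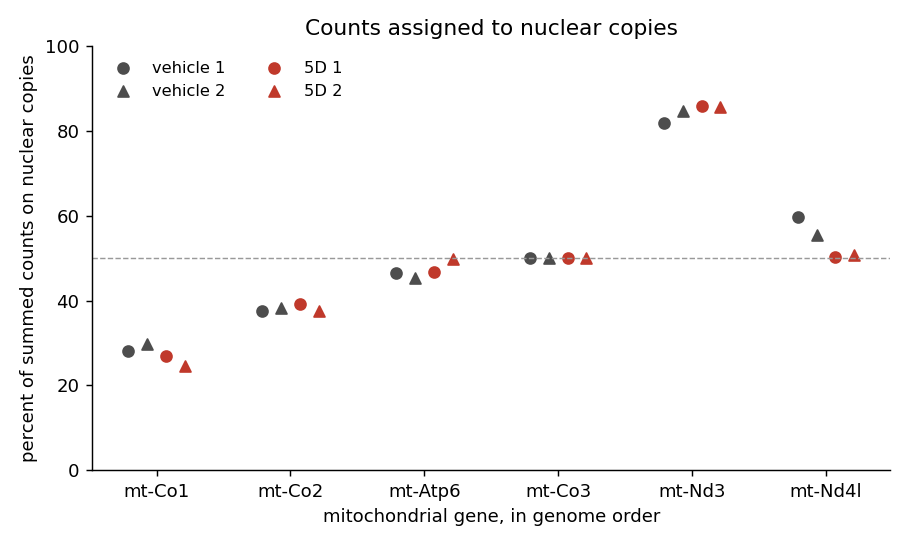
Percent of the summed counts of a mitochondrial gene and its nuclear copies that was assigned to the copies, for the 6 genes with a copy on chromosome 1, in genome order. Each point is a library (grey, vehicle; red, 5D) and the dashed line marks equal division: mt-Co3 lay on it in every library, mt-Nd3 at 81.9% to 85.8%.

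In total, the vehicle libraries had 23239764 and 20096513 counts on genes and the 5D libraries 26912647 and 28697196. Of the 12 listed ILC2 markers, 11 were above 10 CPM (counts per 1000000 counts) in every library, and the list summed to 11091 to 11945 CPM. The lists of the other cell types summed to 71.2 CPM at most, which was the NK cell and ILC1 list, where Gzma alone had 44.5 to 70.9 CPM. Several of these sums cover only part of a list, since not every listed gene had a row among those analysed here. Rows were found for 1 of 5 endothelial genes (Pecam1), 1 of 4 eosinophil genes (Ccr3), 2 of 5 B cell genes and 4 of 6 T cell genes. The NK cell and ILC1, fibroblast and red cell lists had 4 of 5 each. The epithelial list summed to 25.5 to 28.2 CPM, nearly all of it Epcam at 25.4 to 27.6, while Scgb1a1 and Krt8 were at 0 in every library.

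On chromosome M, the vehicle libraries had 227922 and 213278 counts and the 5D libraries 217829 and 231935, ranges that overlap. As a share of all counts they made up 0.981% and 1.06% with vehicle and 0.809% and 0.808% with 5D. Both 5D libraries were thus below both vehicle libraries, and the mean share of the vehicle libraries was 1.02% ± 0.0569 and that of the 5D libraries 0.809% ± 0.000833 (SD, n = 2). The difference was -0.212 percentage points, or -20.8% of the vehicle mean. An exact permutation test of 2 against 2 libraries cannot go below p = 0.333, so none was made on the shares. The 5D libraries had both the larger totals and the lower share, and the part of the totals in this difference was not tested. In RNA from a bulk of cells, less mitochondrial RNA in each cell and fewer cells rich in it cannot be told apart.

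The 3 kinds of RNA contributed unequally. mRNA took 0.703% and 0.676% of all counts with vehicle and 0.595% and 0.572% with 5D, and rRNA took 0.277% and 0.384% against 0.214% and 0.236%. Both were lower in both 5D libraries. tRNA genes had 188 and 156 counts in the vehicle group and 134 and 137 in the 5D group, or 8.09 and 7.76 CPM against 4.98 and 4.77. The 6 copies on chromosome 1 took 0.273% of all counts in either vehicle library, and with 5D they took 0.239% and 0.237%. With the copies added to chromosome M, the share was 1.25% and 1.33% with vehicle and 1.05% and 1.04% with 5D.

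**Figure D2:**
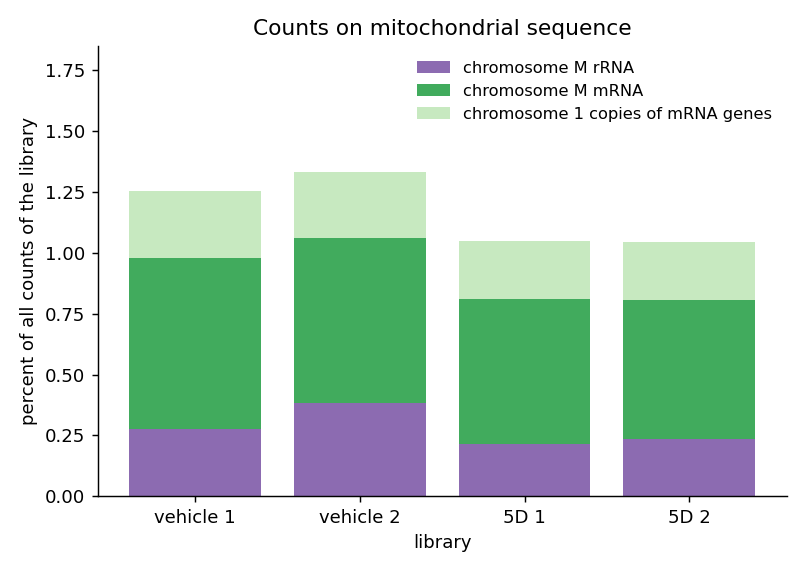
Share of all counts of each library, in percent, that fell on mitochondrial rRNA genes, mitochondrial mRNA genes and the 6 nuclear copies on chromosome 1; tRNA is too small to show. Chromosome M, the lower 2 segments, reached 0.981% and 1.06% with vehicle and 0.809% and 0.808% with 5D.

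Within chromosome M, rRNA made up 28.2% and 36.2% of the counts with vehicle and 26.4% and 29.2% with 5D. These ranges overlap, and the difference of -4.42 percentage points was smaller than the spread between the vehicle libraries. Without the second vehicle library it was -0.416, and without the first -8.42. Among the mitochondrial mRNA counts, complex I genes made up 29.4% and 28.9% with vehicle and 28.7% and 26.9% with 5D, complex IV genes 41.1% and 42.5% against 41.5% and 45.4%. The groups did not overlap for complex I and overlapped for complex IV.

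Levels per gene are given as normalized CPM, that is, CPM with the library total scaled by the upper quartile. Changes are log2 fold changes of 5D to vehicle with their standard error (SE) from edgeR's quasi-likelihood test, fitted over 17650 genes, with Benjamini-Hochberg adjustment over all of them. A gene is called lower or higher at an adjusted p under 0.05. All 15 rRNA and mRNA genes had both 5D libraries below both vehicle libraries, which holds for 18.8% of all genes tested. Of the 15, 3 were called lower, mt-Rnr1, mt-Nd2 and mt-Nd4, and 14 had an unadjusted p under 0.05 in that direction. Over all genes tested, 0.0680% were called lower, 12 genes in number, and 3.84% were lower at an unadjusted p under 0.05. No gene of chromosome M was called higher, nor was any higher at an unadjusted p under 0.05 (over all genes, 0.0283% and 3.50%). Without the first vehicle library 8 members were among 107 genes called lower over the whole table, and without the second 9 among 47. Without the first 5D library 5 were among 14, and without the second 2 among 12. In such fits the lone library of a group is assumed to vary like the other group. With all libraries, the median log2 fold change was -0.61 for the 2 rRNAs and -0.28 for the 13 mRNAs, against -0.0016 for all genes tested. DESeq2's Wald test called 8 of the mRNAs lower, among them mt-Nd1, mt-Nd5, mt-Atp6 and mt-Cytb, but not mt-Rnr1, whose adjusted p was 0.0661 there, with 0.491% of the genes to which that test gave an adjusted p called lower.

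mt-Rnr1 (chrM:70-1024, plus strand), the RNA of the small ribosomal subunit, had 336 and 386 normalized CPM with vehicle and 254 and 202 with 5D. Its mean went from 361 ± 35.3 to 228 ± 36.4 (SD, n = 2), and it fell by 0.66 on the log2 scale (SE 0.093, edgeR adjusted p = 0.0253), a change of -36.7%. mt-Rnr2 (chrM:1094-2675, plus strand), the RNA of the large subunit, had 2433 and 3474 normalized CPM with vehicle and 1865 and 2166 with 5D. The vehicle libraries stood further apart from each other than the lower of them did from either 5D library. The log2 fold change of mt-Rnr2 was -0.55 (SE 0.12, 95% interval -0.82 to -0.29, edgeR adjusted p = 0.234), and it was -0.27 without the second vehicle library. The counts of mt-Rnr2 were 7.25 and 9.01 times those of mt-Rnr1 with vehicle and 7.34 and 10.7 times with 5D, so this ratio did not separate the groups. Neither rRNA had a near-identical stretch in another annotated gene, and copies outside annotated transcripts were not searched for.

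Complex I, which passes electrons from NADH to ubiquinone, takes 7 subunits from the mitochondrial genome. mt-Nd2 (chrM:3914-4951) had 294 and 289 normalized CPM with vehicle and 231 and 214 with 5D. It fell by 0.39 (SE 0.054, edgeR adjusted p = 0.0253), a change of -23.6%. mt-Nd4 had 368 and 364 normalized CPM against 297.1 and 272. It fell by 0.36 (SE 0.053, edgeR adjusted p = 0.0265), a change of -22.3%. In both genes the vehicle libraries lay close together and the 5D libraries lay clearly under them, the second more so. Without the second 5D library, which leaves a lone 5D library, mt-Nd2 and mt-Nd4 had log2 fold changes of -0.34 and -0.30, and neither was called by edgeR. Both also match, over 510 nt and 876 nt, genes that have no row among those analysed here.

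mt-Nd5, the longest of the mRNAs, had 377 and 358 normalized CPM with vehicle and 310 and 293 with 5D (log2 fold change -0.28, SE 0.051, edgeR adjusted p = 0.0879). It too matches a gene that has no row among those analysed here, over 954 nt at 95.2% identity. mt-Nd1 (chrM:2751-3707), which follows the rRNAs, had 918 and 841 against 762 and 678, with -0.29 (SE 0.058, edgeR adjusted p = 0.167). mt-Nd6, the minus-strand gene, had 75.1 and 77.7 against 63.9 and 57.1, with -0.34 (SE 0.082, edgeR adjusted p = 0.361). The value of mt-Nd6 thus lay among those of the plus-strand complex I genes, and it made up 1.07% and 1.14% of the mitochondrial mRNA counts with vehicle and 1.08% and 0.996% with 5D.

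The remaining complex I genes, mt-Nd3 and mt-Nd4l, were the lowest of the 15 and both have a copy on chromosome 1. mt-Nd3 had 18.6 and 18.04 normalized CPM with vehicle and 13.6 and 14.7 with 5D, with a log2 fold change of -0.37 (SE 0.14, edgeR adjusted p = 0.566). With its copy added it had 102.4 and 118 against 95.6 and 102.1, and the log2 fold change was -0.16 (SE 0.078, edgeR adjusted p = 0.719). The groups did not overlap in either, but with the copy the second 5D library all but reached the first vehicle library. mt-Nd4l moved the other way. Its deposited row had 17.8 and 16.8 against 15.03 and 14.9 (-0.21, SE 0.14, edgeR adjusted p = 0.800), and with its copy it had 44.2 and 37.8 against 30.2 and 30.2 (-0.44, SE 0.11, edgeR adjusted p = 0.356). Which of the values of these 2 genes is nearer to the mitochondrial RNA was not tested.

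Complex III has 1 mitochondrially encoded subunit, cytochrome b. Its gene mt-Cytb (chrM:14145-15288) had 1063 and 936 normalized CPM with vehicle and 867 and 810 with 5D, with a log2 fold change of -0.25 (SE 0.057, edgeR adjusted p = 0.257). It was -0.16 without the first vehicle library and -0.35 without the second.

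As deposited, the 3 genes of complex IV, cytochrome c oxidase, were among those with changes nearest to 0. This depends on the chromosome 1 copies: with them added, mt-Co1 had -0.27 and mt-Nd3 of complex I -0.16. mt-Co1 (chrM:5328-6872), encoding the subunit with the oxygen-binding site, had 1046 and 1104 normalized CPM with vehicle and 860 and 1004 with 5D, with a log2 fold change of -0.21 (SE 0.061, edgeR adjusted p = 0.518). Its partial copy Gm29216 was itself called lower, with 407 and 470 against 317 and 329 (-0.44, SE 0.062, edgeR adjusted p = 0.0253), and the sum of both gave -0.27 (SE 0.055). mt-Co1 alone had -0.10 without the first 5D library and -0.32 without the second. Without the first vehicle library it had -0.25, and without the second -0.17. mt-Co2 (chrM:7013-7696), which takes up electrons from cytochrome c, had 756 and 702 against 659 and 598, with -0.21 (SE 0.053, edgeR adjusted p = 0.366). mt-Co3 (chrM:8607-9390) had 1090 and 1077 against 933 and 1000, with -0.16 (SE 0.041, edgeR adjusted p = 0.366), and adding its copy left both groups apart with -0.16. In mt-Co1 and mt-Co3 the second 5D library was the higher of the 5D pair, whereas in every complex I gene but mt-Nd3 it was the lower.

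As deposited, the ATP synthase genes lay further from 0 than the complex IV genes, but with the copies added mt-Atp6 was nearer to 0 than mt-Co1. mt-Atp6 had 773 and 773 normalized CPM with vehicle and 679 and 588 with 5D, with a log2 fold change of -0.29 (SE 0.058, edgeR adjusted p = 0.172), and -0.23 (SE 0.043) with its copy. Without the second 5D library its deposited row had -0.19. mt-Atp8 had 241 and 234 against 211 and 194, with -0.23 (SE 0.057, edgeR adjusted p = 0.366). Per length, mt-Atp8 had 1.04 and 1.01 times the counts of mt-Atp6 with vehicle and 1.04 and 1.10 times with 5D, as deposited.

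**Figure D3:**
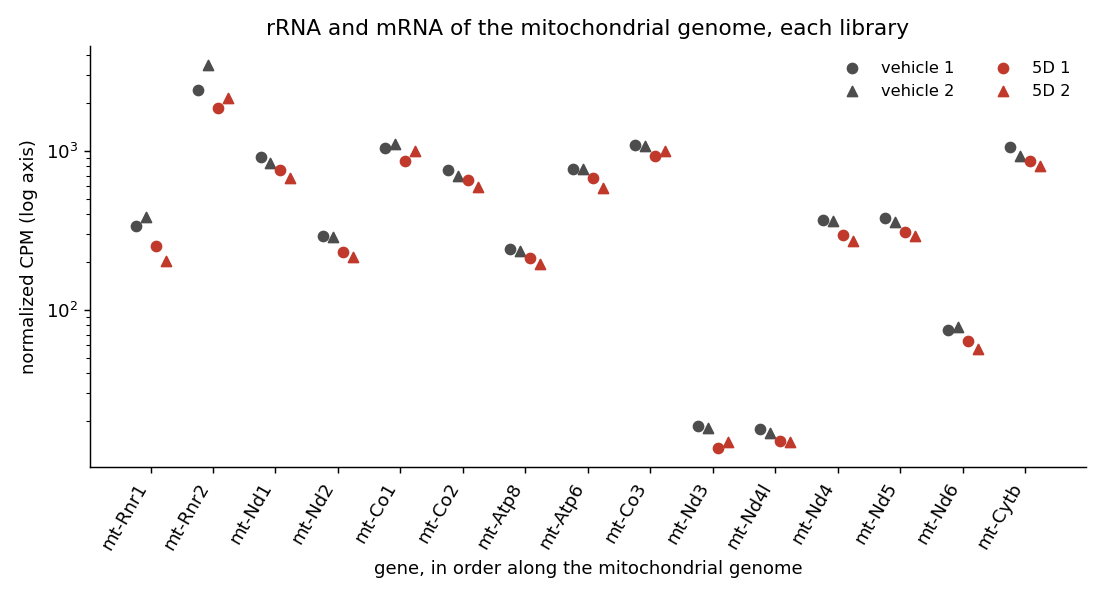
Normalized CPM (log axis) of the 2 rRNA and 13 mRNA genes in genome order, with 1 point per library (grey, vehicle; red, 5D). In each gene both red points lie below both grey points, and the vehicle libraries stand furthest apart in mt-Rnr2, at 2433 and 3474.

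**Figure D4:**
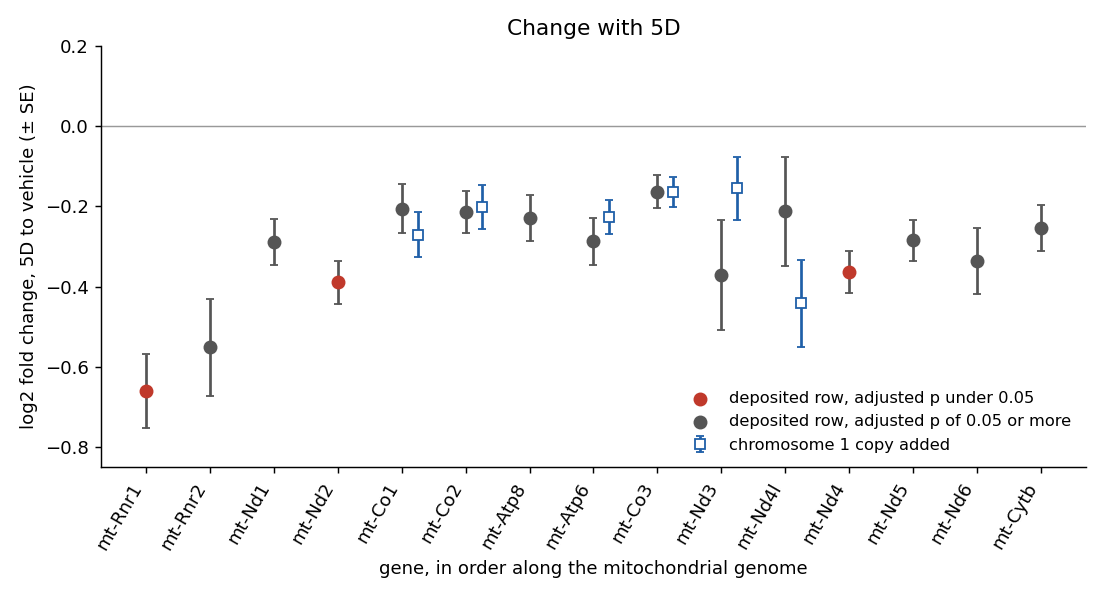
Log2 fold change of 5D to vehicle with its SE for the same genes; red points were called lower by edgeR, grey points were not, and open squares show the value with the chromosome 1 copy added. Both rRNAs lie under the mRNAs, and the copies move mt-Nd3 from -0.37 to -0.16 and mt-Nd4l from -0.21 to -0.44.

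To describe composition alone, libraries were also scaled to the total of chromosome M, which shifted the median log2 fold change of all genes tested to 0.34. On that scale mt-Rnr1 had -0.31 (SE 0.10, edgeR adjusted p = 0.0300) and mt-Rnr2 -0.20 (SE 0.10, edgeR adjusted p = 0.156), while the mRNAs ran from -0.049 to 0.18. Of the mRNAs, 10 had a positive and 3 a negative sign there, the latter being mt-Nd2, mt-Nd3 and mt-Nd4. These signs are not free of each other, as the rRNAs and mRNAs make up the total to which they were scaled. The directions given above for the mRNAs are thus directions against the rest of the transcriptome. All 15 genes stayed below the shifted median, which is no further check, since the scaling moves all genes by nearly the same amount.

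Across the 13 mRNAs, which are not independent replicates and share precursors, Spearman's rho of the log2 fold change with position along the genome was -0.044. With the GC content of the gene rho was 0.69 for the deposited rows and -0.12 with the copies added. With the level per kb of the deposited rows in vehicle it was 0.46 for the log2 fold changes of either kind. The level with the copies added was not used for this. The 6 mRNAs with a copy on chromosome 1 had a median log2 fold change of -0.21 both as deposited and with the copies added, and the other 7 one of -0.29.

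Levels can be set against each other per length, as normalized CPM per kb of gene. The kit primes cDNA on poly(A), so this order may also depend on how each RNA was primed, which was not tested. It is an order of counts, not of amounts of RNA. With vehicle the deposited rows ran from mt-Rnr2 at 1867 ± 466 over mt-Co3 at 1381 ± 11.8, mt-Atp8 at 1164 ± 27.2, mt-Atp6 at 1135 ± 0.711 and mt-Co2 at 1065 ± 55.9 (SD, n = 2 each). mt-Nd1 followed at 919 ± 56.7 and mt-Cytb at 873 ± 78.7, and these 2 overlapped between libraries. mt-Co1 was next at 696 ± 26.8. mt-Rnr1 came at 378 ± 37.0, under 8 of the genes, although both rRNAs come from the same stretch of precursor. mt-Nd2 at 281 ± 3.21, mt-Nd4 at 266 ± 1.63, mt-Nd5 at 201 ± 7.35 and mt-Nd6 at 147 ± 3.51 formed the lower part. mt-Nd4l at 58.4 ± 2.34 and mt-Nd3 at 52.6 ± 1.05 closed the order. The 5D means had the same order, but in the first 5D library mt-Co3 at 1190.3 was above mt-Rnr2 at 1179, and in the second mt-Co2 at 874 was above mt-Atp6 at 863. Complex I genes other than mt-Nd1 thus had the lowest levels of the mRNAs, below every complex III, IV and V gene.

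With the chromosome 1 copies added the order differed. mt-Co3 came first at 2763 ± 25.3 normalized CPM per kb with vehicle, mt-Atp6 followed at 2098 ± 40.7, and mt-Rnr2 at 1867 ± 465 overlapped with mt-Atp6 and with mt-Co2 at 1716 ± 76.9. mt-Nd3 rose in the order to 317 ± 31.7, above mt-Nd2, and mt-Nd4l at 138 ± 15.3 was then last. The level of mt-Atp6 against the overlapping mt-Atp8 therefore depends on whether the copy is counted. mt-Atp8 had no such stretch in another annotated gene, so nothing was added to it. The copies of mt-Atp6 and mt-Co2, its neighbours, lie at chr1:24613974-24614651 and chr1:24614885-24615565, and the sequence between these was not searched. Whether mt-Atp8 also lost counts to chromosome 1 was not tested.

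The 14 tRNA genes had between 0 and 76 counts each, whereas no rRNA or mRNA gene had fewer than 337. The 8 minus-strand tRNA genes, which are all of those annotated, held 164 and 139 counts with vehicle and 113 and 106 with 5D. The 6 of 14 plus-strand tRNA genes in the table held 24 and 17 against 21 and 31. Most counts fell on 2 minus-strand tRNAs, whose sequences are shown for that reason with the anticodon in capitals. mt-Ts1 (chrM:6870-6938), which carries serine and whose last 3 nt lie opposite the end of mt-Co1, took 40.4% and 41.7% of the tRNA counts with vehicle and 30.6% and 42.3% with 5D.
mt-Ts1: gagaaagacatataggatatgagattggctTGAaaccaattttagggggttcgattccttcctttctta
mt-Tq (chrM:3772-3842), which carries glutamine and shares 3 nt with mt-Ti on the plus strand, took 30.3% and 32.1% with vehicle and 35.8% and 23.4% with 5D.
mt-Tq: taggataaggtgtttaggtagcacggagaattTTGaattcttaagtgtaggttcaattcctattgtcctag

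These 2 tRNAs were chosen after their values were seen, since none reached a mean of 100 counts or was called. mt-Ts1 had 76 and 65 counts with vehicle and 41 and 58 with 5D, or 3.27 and 3.25 against 1.51 and 2.03 normalized CPM. Its log2 fold change was -0.88 (SE 0.32, edgeR adjusted p = 0.566). mt-Tq had 57 and 50 counts against 48 and 32, with -0.78 (SE 0.38, edgeR adjusted p = 0.708). The groups did not overlap on the normalized scale in either. The other 12 tRNA genes together held 55 and 41 counts with vehicle and 45 and 47 with 5D, which overlap. Of all 14, 9 passed the filter on low values and 5 did not. Of the 9, 7 had a negative and 2 a positive log2 fold change, and only mt-Ts1 had an unadjusted p under 0.05 (0.0195). SEs of the 9 ran from 0.32 to 1.52 on the log2 scale, so a change of the size of the mRNA median was smaller than 1 SE in each. With reads not marked by strand, counts on a minus-strand tRNA and on plus-strand RNA that runs across its position cannot be told apart.

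The complexes are completed by subunits from the nucleus. Of 37 listed nuclear genes of complex I, 16 had a negative log2 fold change (of all genes tested, 50.4%) and 21 a positive one, with a median of 0.011 and a range from -0.092 to 0.11. The medians were -0.0053 for 9 genes of complex III, -0.024 for 11 of complex IV and -0.0043 for 17 of complex V. Over these 74 genes the range was -0.13 to 0.11, none was called by edgeR and none had an unadjusted p under 0.05, where over all genes 3.84% were lower and 3.50% higher. The 13 mitochondrial mRNAs ran from -0.39 to -0.16, below every one of the 74. These lists were put together with earlier results of these data known.

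Of 49 listed nuclear genes that copy, transcribe, process or modify mitochondrial nucleic acid, 25 had a negative and 24 a positive log2 fold change, with a median of -0.0083. None was called by edgeR, and at an unadjusted p under 0.05 1 was lower and 1 higher (over all genes tested, 3.84% and 3.50%). Prorp, the nuclease that cuts the leading ends of tRNAs out of the precursors, had 13.05 and 14.8 normalized CPM with vehicle and 10.1 and 10.8 with 5D (log2 fold change -0.41, SE 0.16, unadjusted p = 0.0235, edgeR adjusted p = 0.592). Angel2, which acts on RNA ends, had 68.3 and 59.9 against 77.4 and 69.8 (0.20, SE 0.090, unadjusted p = 0.0484, edgeR adjusted p = 0.674). Prorp and Angel2 are named because of these p-values. Of all genes tested, 18.8% had both 5D libraries below both vehicle libraries, as Prorp did. Another 3 were named for their role after their values were seen: Polrmt, the RNA polymerase of mitochondria, had a log2 fold change of 0.060 (SE 0.11), Tfam, which packs the genome and helps to start transcription, -0.058 (SE 0.081), and Lrpprc, which stabilizes mitochondrial mRNAs, 0.029 (SE 0.074). Polrmt overlapped between the groups, with 46.6 and 38.6 normalized CPM with vehicle and 42.6 and 46.3 with 5D.

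**Figure D5:**
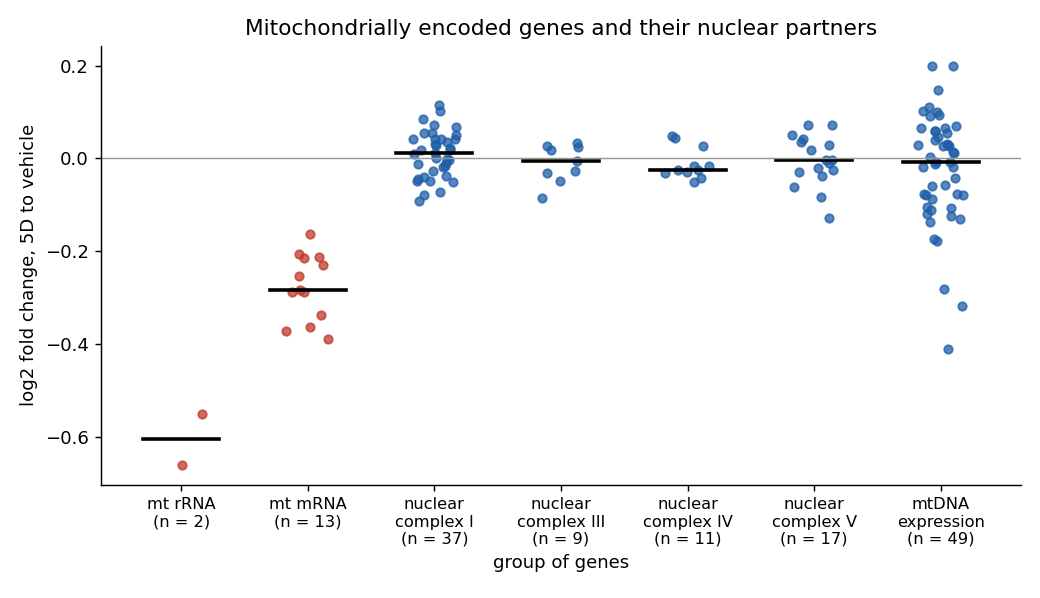
Log2 fold change of 5D to vehicle for the mitochondrial rRNA and mRNA genes (red) and for listed nuclear genes of the same complexes and of mitochondrial DNA expression (blue), with 1 point per gene and black bars at the medians. The mitochondrial mRNAs lie between -0.39 and -0.16, and the nuclear subunits of complexes I, III, IV and V between -0.13 and 0.11.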

How the data were processed

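The authors made cDNA with a SMARTer low-input kit, sequenced it on a NextSeq instrument, aligned reads with STAR 2.6.1 to mm10 and quantified genes in Partek with GENCODE M21. The deposited values are estimated counts, not normalized, and were rounded here. In a library, 50.4% to 53.2% of the values were whole. The planned analysis assumed whole counts. No strand setting for counting is given in the sources used here. Coordinates follow GENCODE M21 on mm10. The file gives equal starts, and ends 1 higher.

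Counts were fitted in R 4.3.3 with edgeR 4.0.16 by the quasi-likelihood test of 5D against vehicle, two-sided, without covariates, in place of the Gene Set Analysis of the study. Libraries were scaled by the upper quartile of the whole table. A gene stayed in if its normalized counts had a mean of 1 or more and a sum of 10 or more, which left out 4904. The standard error was derived from F, as the size of the log2 fold change over the root of F. Totals ran from 20096513 to 28697196 counts per library, and the biological coefficient of variation was 8.51%. The code was tested on simulated data. Copies were searched with BLAST 2.17.0, and figures were drawn with matplotlib 3.10.9.

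Members and lists were chosen with earlier results of these data known. Named are both rRNAs, all mRNAs, tRNAs with a mean of at least 100 counts or an adjusted p under 0.05, the 5 copies with most counts, and in the lists the called genes and at most 2 lower and 2 higher with the smallest unadjusted p under 0.05. Gm10222 and the copies on chromosome 2 were added after their values were seen. The alternatives were TMM, DESeq2 size factors, normalization without chromosome M, scaling to its total, DESeq2 1.42.0 Wald test, limma 3.58.1 voom, no filter, filterByExpr, the replicate number as a block, thinning, and leaving out each library. Adding the copies, the upper quartile after the filter, and the alternatives for the nuclear lists were chosen after seeing the data.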

Additional observations from a re-analysis of the deposited data

How the results depend on the processing

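All 15 rRNA and mRNA genes had a negative log2 fold change under each of the 15 alternatives other than scaling to the chromosome M total. Under that scaling the signs of 10 mRNAs turned: mt-Nd1 0.050, mt-Co1 0.14, mt-Co2 0.13, mt-Atp8 0.11, mt-Atp6 0.054, mt-Co3 0.18, mt-Nd4l 0.13, mt-Nd5 0.055, mt-Nd6 0.0048 and mt-Cytb 0.084. The median of the mRNAs was then 0.055 and that of the rRNAs -0.26, and 1 gene, mt-Rnr1, was called lower. Among the tRNAs mt-Ti, at -0.0043, turned to 0.0061 with TMM, 0.34 with that scaling, 0.19 with limma-voom, 0.087 with the replicate block and 0.54 without the first 5D library (-0.79 to 0.54 on leaving out a library), and mt-Tl1 to -0.061 without the second vehicle library (-0.061 to 0.71).

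The genes called lower numbered 3 with edgeR (12 over the whole table), 8 with DESeq2's Wald test (43), 6 with limma-voom (23) and 8 without a filter (35). With the replicate number as a block 10 were called (32). Deviations of samples with the same number had a correlation of 0.0088 over all genes tested, 0.061 over those with a mean of at least 10 normalized CPM and 0.349 over the 15 members among these. Nothing in the labels says that a number marks a shared source, so the numbers were not taken to pair the libraries. Leaving out a library gave 2 to 9, with the lone library assumed to vary like the other group and the cause of the range not tested: 8 without the first vehicle library, 9 without the second, 5 without the first 5D library and 2, mt-Rnr1 and mt-Co1, without the second. mt-Nd2 and mt-Nd4 were then not called. The median of the mRNAs ran from -0.32 to -0.22 and that of the rRNAs from -0.77 to -0.42. No gene of chromosome M was called higher under any alternative run. No nuclear partner gene was called under the alternatives looked at for those lists. Scaling to the chromosome M total and adding the copies were not among these. The difference in the chromosome M share was -0.107 percentage points without the rRNA genes, with -0.172 to -0.252 on leaving out a library, and that in the rRNA share ran from -8.42 to -0.416. The tRNA genes had at most 76 counts in a library, with SEs of at least 0.32.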
